A study of Caenorhabditis elegans with 35 samples.

Results

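The transcriptomes of 2 triple mutants of Caenorhabditis elegans, eak-7;akt-1;daf-12 and daf-16;eak-7;akt-1, were compared directly. The comparison used 10 libraries, 5 of each strain, of the 35 libraries and 7 strains in the series. Libraries were chosen by strain alone, and the eak-7;akt-1 libraries entered neither the difference nor its error. Both strains carried mutations in eak-7 and akt-1, and each carried a further mutation, in daf-12 (the daf-12 triple mutant) or in daf-16 (the daf-16 triple mutant). The study's methods give mu86 as the daf-16 allele, and the daf-12 allele is not given in the sources used here. The libraries came from whole larvae labelled as L2 or L2D, the larval stage before dauer. Eggs were laid over 6 h at 20°C, the eggs were held for 24 h at 25°C, which the submitters describe as dauer-inducing, and the larvae were then collected. Wild-type and eak-7;akt-1 larvae of the same age, 5 libraries of each, are given only as reference levels.

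Dauer is an alternative larval stage of C. elegans in which development halts until conditions improve. DAF-16 is the FoxO transcription factor held in check by insulin-like signaling through DAF-2/InsR, PI3K and Akt, and EAK-7 limits DAF-16/FoxO activity alongside AKT-1. DAF-12 is a nuclear hormone receptor that promotes dauer arrest when it lacks its steroid ligands, the dafachronic acids, and promotes reproductive development when it binds them. The eak-7;akt-1 double mutant forms dauers, which needs DAF-16/FoxO. Comparing both triple mutants asks which transcripts differ according to whether the nuclear receptor or the FoxO factor is missing from the same background.

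The deposited value of a locus in a library was a scaled count, a number of sequenced fragments divided by a size factor of that library. The 10 libraries held between 44520 and 87119 fragments, with medians of 54868 for the daf-12 triple mutant and 58116 for the daf-16 triple mutant, and the 10 largest loci took between 34.8% and 41.2% of them. Testing was limited to the 1101 of 37555 loci that reached 5 scaled counts in 5 or more of the 35 libraries. Of the tested loci, 517 carried more than 1 gene name, so that a value could not be assigned to 1 of those genes. On the first principal component of the 35 libraries, which took 40.2% of the variance, 9 libraries stood apart from the other 26. Among these 9 were replicate 7 of the daf-12 triple mutant and replicate 10 of the daf-16 triple mutant, and 28 tested loci were at 0 in both and above 3 fragments in each of the other 8 libraries. Results that rest on these libraries are given with and without them. The component was computed from the tested loci themselves. The fits without these libraries are therefore not independent of the choice to leave them out. The mutated genes could not serve as a check of the labels, since eak-7, akt-1, daf-12 and daf-16 had at most 3 fragments in any library of the 35. Summed markers of hypodermis, the skin of the worm, ranged from 689.9 to 882 scaled counts in the daf-12 triple mutant and from 676 to 846 in the daf-16 triple mutant. Most of this sum came from 1 locus that merges the collagen gene col-111 with F29B9.11 and mrps-21. Its means were 643 in the daf-12 and 657 in the daf-16 triple mutant, and they cannot be assigned to col-111 alone. The hypodermis marker dpy-7 had 3 or fewer fragments in each of the 10 libraries. The other marker sets were thinly covered, with ges-1 and cpr-1 of the intestine, tnc-2 of muscle and flp-1 of neurons at 0 in all 10 libraries, and the germ line and gamete markers summed to at most 2.81 scaled counts in any of the 10.

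The triple mutants differed at few loci. With both a 1.5-fold change or more and a limma adjusted p below 0.05 required, 5 of 1101 loci were called higher in the daf-12 triple mutant (0.454%) and 0 were called lower (0%). They were F48D6.4, C02E7.7, F15E6.4, a locus that merges F21C10.7, F21C10.11 and F21C10.13, and a locus with no gene name or position. At an unadjusted p below 0.05, 83 loci (7.54%) passed, 44 of them higher (4%) and 39 lower (3.54%) in the daf-12 triple mutant. Chance gives about 5% at this threshold, or 55.1 of the tested loci, so many of the 83 may hold no difference. edgeR passed 80 loci at that threshold. The libraries of the strains did not overlap at 14 loci that were higher (1.27%) and 6 that were lower (0.545%). The median log2 fold change over all tested loci was -0.00202, where a positive value is higher in the daf-12 triple mutant. With TMM scaling 5 loci were called higher and 1, far-2, lower. edgeR also called 1 lower and DESeq2 called 2, and DESeq2 passed 68 loci at the unadjusted threshold. With no filter on low values 8710 loci entered the test and F48D6.4 was the 1 locus called. Without the libraries that stand apart, 9 loci were called, again all higher (0.817%). The count was 1 without replicate 10 of the daf-12 triple mutant, 2 without its replicate 6, 3 without its replicate 9 and 2 without replicate 8 of the daf-16 triple mutant. The study describes the samples of a strain as biological replicates of many pooled progeny, and no label says whether they came from separate cultures or days. The p-values measure the spread between these samples. In whole larvae, fewer cells of a type and less RNA per cell cannot be told apart.

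**Figure D1:**
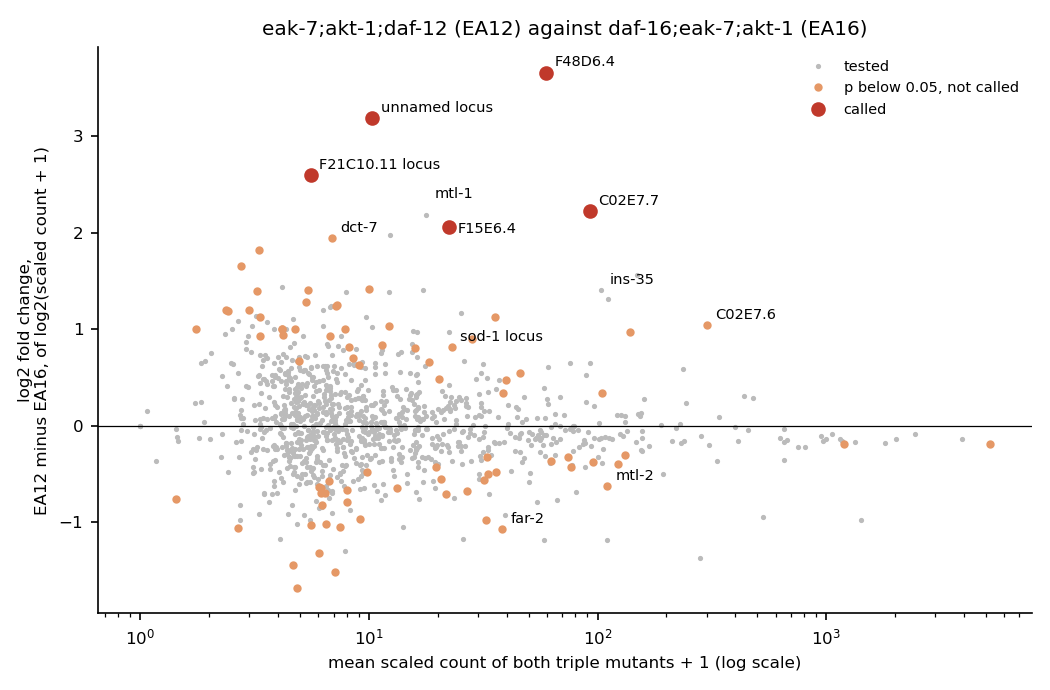
Each point is 1 of the 1101 tested loci. The x axis gives the mean scaled count over the 10 libraries plus 1 on a log scale, and the y axis the log2 fold change of log2(scaled count + 1), eak-7;akt-1;daf-12 (EA12) minus daf-16;eak-7;akt-1 (EA16). The 5 called loci (red) all lie above 0, and the 78 other loci with p below 0.05 (orange) lie on both sides.

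F48D6.4 was the locus that differed most. It is a protein-coding gene on the minus strand of chromosome X (WBcel235 chrX:4246554-4247212), with 3 exons and a longest transcript of 550 nt. Its scaled counts were 7.02, 5.30, 6.84, 10.8 and 9.69 in replicates 6 to 10 of the daf-16 triple mutant, and 121, 102, 109, 96.1 and 118 in those of the daf-12 triple mutant. The lowest daf-12 triple mutant library was thus far above the highest daf-16 triple mutant library, and the means differed 13.8-fold. The log2 fold change was 3.66 ± 0.19 (SE, n = 5 and 5; limma adjusted p = 2.36e-06), and the exact two-sided permutation p was 0.00794, the smallest that 5 against 5 libraries allow. Wild type (22.3 ± 4.81, SD, n = 5) and eak-7;akt-1 (22.2 ± 4.79) had similar means, so that the strains lay on opposite sides of both. F48D6.4 was called in 24 of 24 alternative analyses.

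The unnamed locus, XLOC_037532 in the deposited table, had 1.40, 0, 3.42, 1.80 and 0 scaled counts in the daf-16 triple mutant and 11.9, 15.9, 17.5, 24.3 and 17.3 in the daf-12 triple mutant. The groups did not overlap, with 3.19 ± 0.44 on the log2 scale (limma adjusted p = 0.0129). Its mean was 21.002 ± 5.87 in wild type and, in the eak-7;akt-1 double mutant, 11.9 ± 6.93, so that the low strain here was the daf-16 triple mutant. Its call held in 20 of 23 alternative analyses. Among those that lost it were the fit with no filter on low values and the fit without replicate 10 of the daf-12 triple mutant. Without that replicate the log2 fold change of XLOC_037532 was 3.18 (limma adjusted p = 0.0583).

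C02E7.7 lies on the minus strand of chromosome V (chrV:4918136-4918574), with 2 exons. Its scaled counts were 14.04, 22.3, 33.3, 62.9 and 39.6 in the daf-16 triple mutant and 134, 150.03, 103.7, 172 and 185 in the daf-12 triple mutant. Every daf-12 triple mutant library was higher, by 2.22 ± 0.35 on the log2 scale (limma adjusted p = 0.0222). Reference means were 59.2 ± 17.6 in wild type and, in the eak-7;akt-1 double mutant, 3.39 ± 2.31, so that the daf-12 triple mutant lay above wild type, the daf-16 triple mutant below it, and both above the double mutant. The call held in 17 of 24 alternative analyses. On leaving out single libraries it was lost without replicate 6, 9 or 10 of the daf-12 triple mutant and without replicate 7 or 8 of the daf-16 triple mutant.

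F15E6.4, on the plus strand of chromosome IV (chrIV:4291474-4291875) with 2 exons, had 2.81, 12.7, 8.54, 7.19 and 9.69 scaled counts in the daf-16 triple mutant. It had 36.5, 31.9, 28.7, 41.2 and 34.5 in the daf-12 triple mutant, with no overlap between strains. The log2 fold change was 2.06 ± 0.31 (limma adjusted p = 0.0214). Wild type (12.1 ± 4.80) and eak-7;akt-1 (7.55 ± 3.36) were close to the daf-16 triple mutant. The call held in 18 of 24 alternative analyses. On leaving out single libraries it was lost without replicate 6, 9 or 10 of the daf-12 triple mutant and without replicate 8 of the daf-16 triple mutant.

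The merged locus of F21C10.7, F21C10.11 and F21C10.13, on the plus strand of chromosome V, had the fewest fragments of the called loci, 48 in the daf-12 triple mutant and 3 in the daf-16 triple mutant. Its scaled counts were 2.81, 0, 0, 0.899 and 0 in the daf-16 triple mutant and 12.6, 9.38, 7.19, 4.22 and 8.63 in the daf-12 triple mutant, and these did not overlap. The ratio of rates was 14.9, with a 95% interval of 4.80 to 74.7 that covers counting error only, and the limma adjusted p was 0.0268. Here eak-7;akt-1 (9.35 ± 5.99) was close to the daf-12 triple mutant, and wild type (1.87 ± 0.908) to the daf-16 triple mutant. The call did not hold without the libraries that stand apart (adjusted p = 0.0813), held in 11 of 22 alternative analyses, and on leaving out single libraries held only without replicate 9 of the daf-12 triple mutant or replicate 6 of the daf-16 triple mutant.

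Set beside wild type, the daf-16 triple mutant had the lower mean log2 value at all 5 called loci, and the daf-12 triple mutant the higher at 4 of 5. The daf-16 triple mutant mean was the nearer to wild type at 4 of the 5 and the daf-12 triple mutant mean at 1, the unnamed locus. These are descriptions of levels, with no test.

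**Figure D2:**
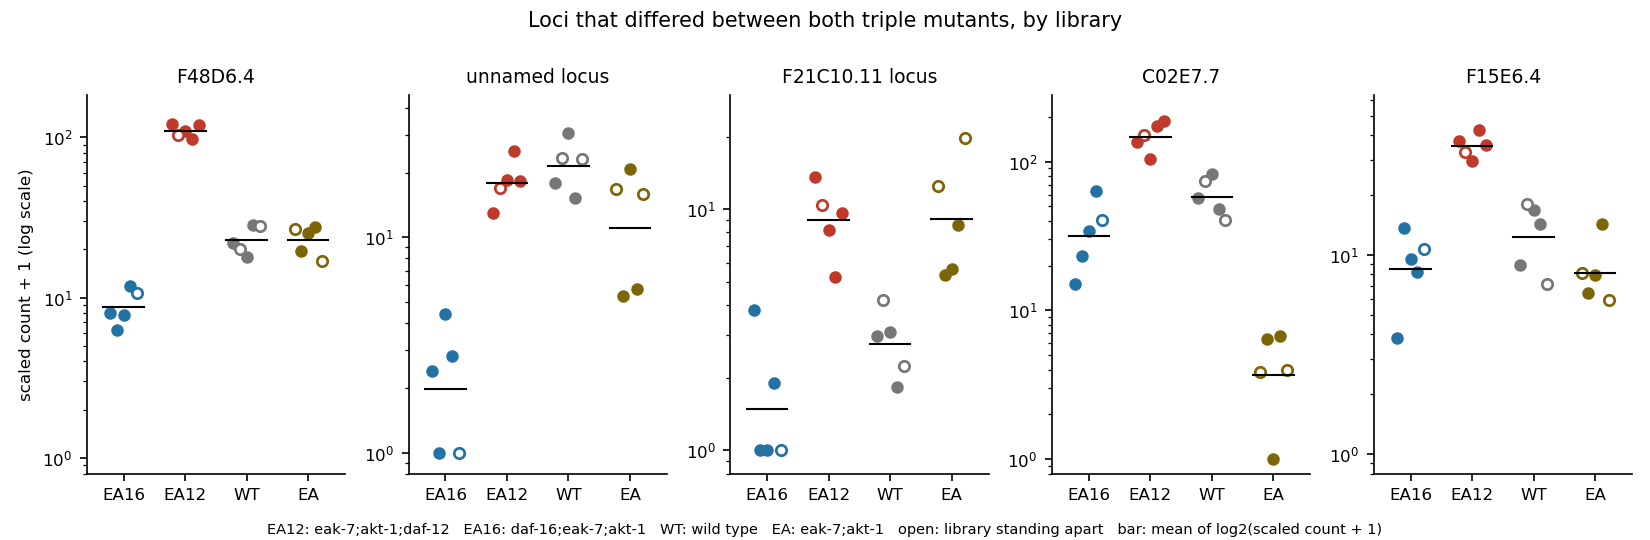
Scaled counts plus 1 (log scale) of the 5 called loci by library in daf-16;eak-7;akt-1 (EA16), eak-7;akt-1;daf-12 (EA12), wild type (WT) and eak-7;akt-1 (EA), 5 libraries each. Bars are means of log2(scaled count + 1) and open circles are libraries that stand apart. The EA12 and EA16 libraries do not overlap at any of the 5 loci.

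The called loci F15E6.4 and C02E7.7 had neighbours with means on the same side, which did not pass the adjusted threshold. F15E6.4 lies head to head with dct-7, a gene named as controlled by DAF-16/FoxO, and the annotated starts are 902 nt apart. dct-7 had 1.40, 0, 2.56, 2.70 and 2.64 scaled counts in the daf-16 triple mutant and 2.81, 11.3, 10.3, 12.7 and 12.5 in the daf-12 triple mutant, a log2 fold change of 1.94 ± 0.48. The libraries did not overlap, but replicate 6 of the daf-12 triple mutant was close to the other strain and the limma adjusted p was 0.163. C02E7.7 lies head to head with C02E7.6, 633 nt from start to start. C02E7.6 had 108, 146.3, 165, 357 and 250.1 scaled counts in the daf-16 triple mutant and 450.0, 353, 299.8, 449 and 409 in the daf-12 triple mutant. Its log2 fold change was 1.04 ± 0.29 (limma adjusted p = 0.329), and the strains overlapped through replicate 9 of the daf-16 triple mutant.

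A further such pair was far-1 (chrIII:9080371-9081179) and far-2 (chrIII:9081828-9082511), which encode secreted proteins that bind fatty acids and retinol, with starts 649 nt apart. far-2 had 47.7, 31.8, 49.6, 64.7 and 62.5 scaled counts in the daf-16 triple mutant and 19.7, 23.4, 19.5, 27.5 and 26.8 in the daf-12 triple mutant. Every daf-12 triple mutant library was lower, by a log2 fold change of -1.07 ± 0.21, and the limma adjusted p was 0.0785. edgeR called far-2 on the recovered fragments (adjusted p = 0.0386), and far-2 was called in 8 of 24 alternative analyses. Its adjusted p ranged from 0.00058 to 0.524 over the 24. The means were 87.1 ± 12.007 in wild type and, in the eak-7;akt-1 double mutant, 18.6 ± 3.17, so that the daf-12 triple mutant was near the double mutant and the daf-16 triple mutant lay between the double mutant and wild type. far-1 had 126.4, 122.98, 122, 162 and 161 scaled counts in the daf-16 triple mutant and 99.7, 105, 98.6, 108 and 110.2 in the daf-12 triple mutant. These also did not overlap, with a smaller log2 fold change of -0.40 ± 0.12 (limma adjusted p = 0.385). A merged locus of W02A2.5 and W02A2.9 on chromosome IV had 26.7, 40.3, 35.0, 55.7 and 55.5 against 21.1, 23.4, 19.5, 22.2 and 16.3, again lower in the daf-12 triple mutant with no overlap (log2 fold change -0.98 ± 0.22, limma adjusted p = 0.123).

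Among tested loci, 37 pairs of genes stood head to head with starts at most 1500 nt apart. The values are those of loci, some of which merge further genes, so the pairs are not all separate. C01G10.6 and C01G10.7, for example, carried the same value in different pairs. In 3 pairs both genes had p below 0.05, namely those of dct-7, C02E7.7 and far-1, and in each pair both genes had the same sign. In 6 pairs 1 gene had p below 0.05, and 23 of the 37 pairs had the same sign. In the pairs of dct-7, C02E7.7 and far-1 the annotated genes did not overlap, with 902, 633 and 649 nt between starts. Whether neighbours shared reads, where the count ignores strand, was not tested.

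**Figure D3:**
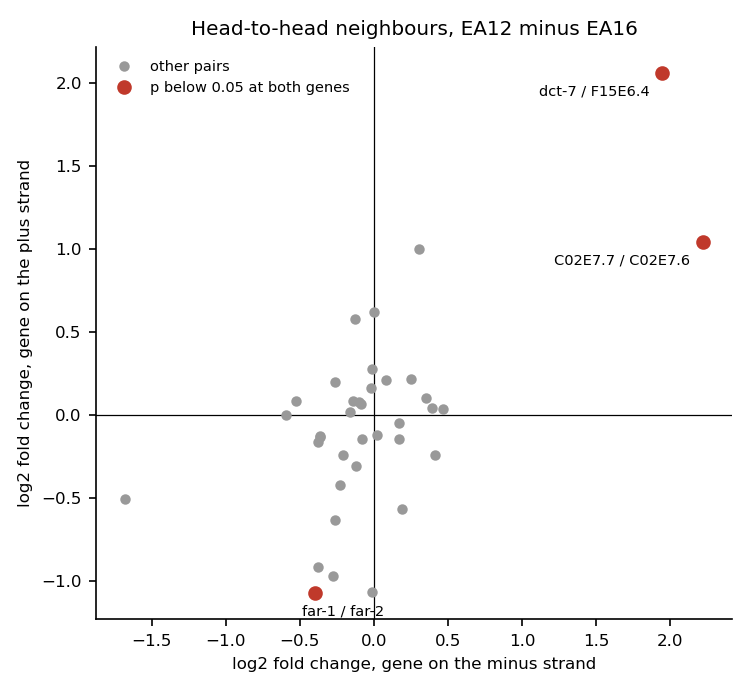
Each point is 1 of 37 pairs of head-to-head genes, placed at the values of their loci, some of which merge further genes. The axes give the log2 fold change, eak-7;akt-1;daf-12 minus daf-16;eak-7;akt-1, of the gene on the minus strand (x) and on the plus strand (y), and the 3 pairs with p below 0.05 at both genes are in red.

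Of the measured DAF-16/FoxO targets, mtl-1 (chrV:6691371-6691863), a metallothionein that binds metals and is induced by DAF-16/FoxO, stood out by its dependence on the libraries used. Its scaled counts were 5.62, 4.24, 4.27, 4.49 and 0 in the daf-16 triple mutant and 53.4, 0, 28.7, 37.0 and 30.7 in the daf-12 triple mutant. Both zeros were libraries that stand apart. With all 10 libraries the log2 fold change was 2.18 ± 1.05 (limma adjusted p = 0.667). Without those libraries it was 2.73 ± 0.25 (adjusted p = 0.000418), with no overlap between 4 and 4 libraries (exact permutation p = 0.0286, the smallest possible). mtl-1 was among the loci that set which libraries stand apart, so these p-values are not independent of that choice. The 3 wild-type libraries that do not stand apart had 5.95, 5.26 and 14.2, and the 3 eak-7;akt-1 libraries 49.8, 87.0 and 119. In libraries that do not stand apart the level was thus higher in the daf-12 than in the daf-16 triple mutant, and the double mutant mean was above both. On the list of metallothioneins and small heat shock proteins, mtl-1 and mtl-2 were the 2 loci tested, with a median of 0.78.

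mtl-2, the other metallothionein, had its values on the opposite side of 0 and did not pass the adjusted threshold. It had 136, 146.3, 122, 140.2 and 114 scaled counts in the daf-16 triple mutant and 101, 99.4, 89.3, 73.9 and 65.2 in the daf-12 triple mutant. No library overlapped, and the log2 fold change was -0.63 ± 0.15 (limma adjusted p = 0.142, and 0.0737 without the libraries that stand apart). Neither dao-2 (0.30 ± 0.31) nor the locus of dao-6 (0.08 ± 0.38), both named as dauer or aging overexpressed genes, passed the test. sod-3, a mitochondrial superoxide dismutase used as a reporter of DAF-16/FoxO activity, was listed at 0 in all 10 libraries. Of 40 loci on the list of DAF-16/FoxO targets, 20 had a fragment in some library and 4 were tested, with a median log2 fold change of 0.19 and 0 called in either direction. Without the libraries that stand apart mtl-1 was the 1 target called.

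A locus that includes sod-1, the cytosolic superoxide dismutase, had 14.04, 13.8, 12.8, 15.3 and 23.8 scaled counts in the daf-16 triple mutant and 28.8, 26.3, 28.7, 25.3 and 31.6 in the daf-12 triple mutant. The strains did not overlap. The log2 fold change was 0.81 ± 0.18 (limma adjusted p = 0.123), and 0.98 ± 0.17 without the libraries that stand apart (adjusted p = 0.0299). Its means were 17.3 ± 5.53 in wild type and, in the eak-7;akt-1 double mutant, 41.9 ± 4.74. The locus merges sod-1 with ppp-1, art-1, tra-2 and other names, and sod-1 overlaps a gene on the opposite strand, so the value cannot be assigned to sod-1 alone. Of the 8 tested redox and glutathione loci it was the only one with p below 0.05. The locus of trx-4, a thioredoxin, had a log2 fold change of 0.83 ± 0.87, and that of gpx-1, a glutathione peroxidase, was at 224 to 261 scaled counts in 4 daf-16 triple mutant libraries and 201 to 282 in 4 daf-12 triple mutant libraries, and at 4.40 and 0 in those that stand apart.

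The insulin-like peptides, which act as agonists or antagonists of DAF-2/InsR, showed no common direction. Of 38 loci on the list, 25 had a fragment and 5 were tested, 3 of them above 0 and 2 below. ins-35 (chrV:20375536-20376302) had 73.0, 79.5, 81.2, 51.2 and 0 scaled counts in the daf-16 triple mutant and 156, 1.88, 189.9, 178 and 212 in the daf-12 triple mutant. The 0 and the 1.88 were again the libraries that stand apart. The log2 fold change was 1.40 ± 1.53 with all libraries (limma adjusted p = 0.903) and 1.37 ± 0.17 without those (adjusted p = 0.00389), where the groups did not overlap. In the libraries of eak-7;akt-1 that do not stand apart ins-35 was at 369, 405 and 377.

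ins-7, an agonist whose expression DAF-16/FoxO represses, ran the other way. It had 5.62, 9.54, 7.69, 5.39 and 0 scaled counts in the daf-16 triple mutant and 2.106, 0, 5.13, 1.06 and 1.92 in the daf-12 triple mutant, -1.02 ± 0.68 on the log2 scale (limma adjusted p = 0.788). Apart from the 0 in replicate 10, each daf-16 triple mutant library was above each daf-12 triple mutant library. Without the libraries that stand apart the ins-7 value was -1.27 ± 0.40 (limma adjusted p = 0.375), which did not pass. The locus was low, with 11 fragments in the daf-12 and 28 in the daf-16 triple mutant. ins-12 had 2.81, 7.42, 11.1, 3.595 and 13.2 against 9.83, 14.1, 17.5, 14.8 and 18.2, 1.03 ± 0.39 on the log2 scale (limma adjusted p = 0.607), with overlap. daf-28, an agonist that favours reproductive growth, changed sign with the libraries, from -0.55 ± 0.97 with all of them to 0.46 ± 0.30 without those that stand apart, and passed the test in neither. The merged locus of ins-25, ins-27 and ins-29 was at 53.0 to 59.0 in the daf-16 triple mutant and 50.7 to 72.8 in the daf-12 triple mutant. The locus of ins-9 and ubc-22 failed the filter. It had 0, 1, 1, 1 and 2 fragments in the daf-16 triple mutant and 0 in each daf-12 triple mutant library. The library with 2 fragments stands apart, and these counts are too few for a direction.

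**Figure D4:**
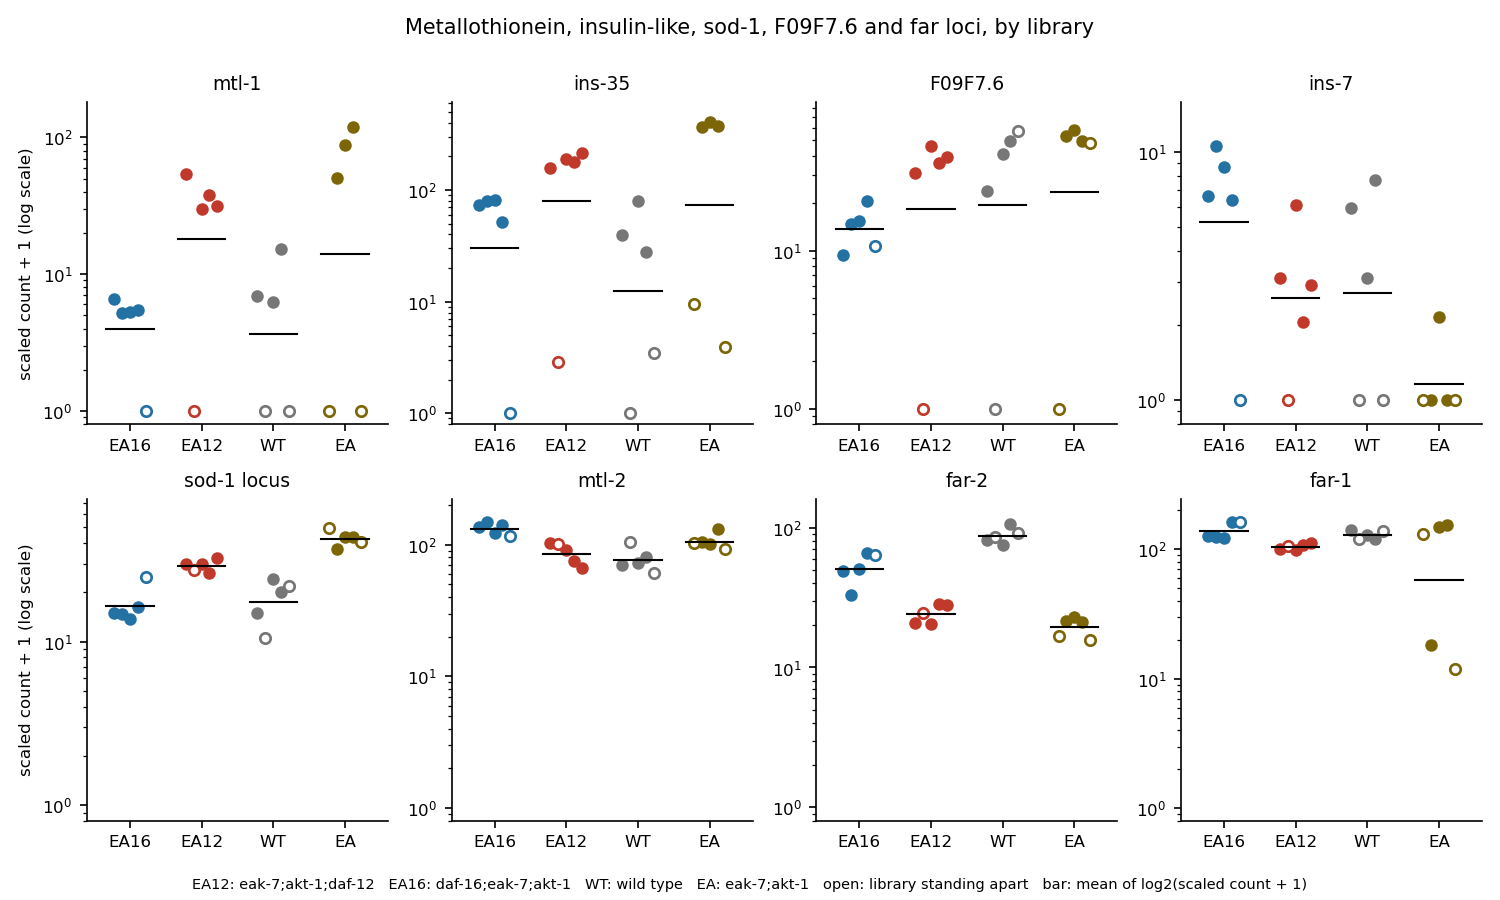
Scaled counts plus 1 (log scale) of 8 loci by library in daf-16;eak-7;akt-1 (EA16), eak-7;akt-1;daf-12 (EA12), wild type (WT) and eak-7;akt-1 (EA). Open circles are libraries that stand apart, which are at most 8.56 scaled counts at mtl-1, ins-35 and ins-7 in every strain shown, and bars are means of log2(scaled count + 1). The EA12 and EA16 libraries do not overlap at the sod-1 locus, mtl-2, far-2 and far-1.

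Loci called without the libraries that stand apart, beside F48D6.4, C02E7.7, F15E6.4, the unnamed locus, mtl-1, ins-35 and the sod-1 locus, were F09F7.6 and a locus of C54F6.5 and swt-2, a sugar transporter of the SWEET family. F09F7.6, which overlaps F09F7.5 on the opposite strand at its end, had 8.42, 13.8, 14.5, 19.8 and 9.69 scaled counts in the daf-16 triple mutant and 30.2, 0, 45.2, 34.8 and 38.3 in the daf-12 triple mutant. Its log2 fold change was 0.42 ± 0.96 with all libraries and 1.37 ± 0.26 (limma adjusted p = 0.0456) without those that stand apart. The locus of swt-2 had 17 fragments in the daf-12 triple mutant and 2 in the daf-16 triple mutant, a ratio of rates of 7.91 with a 95% counting interval of 1.88 to 70.6. Both daf-16 triple mutant fragments were in replicate 10, which stands apart, so that the call without such libraries (limma adjusted p = 0.0487) was against libraries that are all at 0.

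Some genes set the eak-7;akt-1 double mutant apart from wild type and from both triple mutants. The remaining strains of the series are not described here. Y48G8AL.12 and Y48G8AL.16, merged in 1 locus, had 67.4, 77.4, 82.0, 153 and 96.0 scaled counts in the daf-16 triple mutant and 189.5, 188, 136, 183 and 209.9 in the daf-12 triple mutant. The log2 fold change was 0.97 ± 0.22 (limma adjusted p = 0.123), with overlap through replicate 9 of the daf-16 triple mutant, and the means were 131 ± 10.7 in wild type and, in the eak-7;akt-1 double mutant, 2.52 ± 1.68. R12E2.14 had 88.5, 88.0, 126.5, 203 and 151 against 120.0, 130.3, 93.4, 141 and 166.8. Its log2 fold change was 0.04, with a 95% interval from -0.52 to 0.59, and the mean of eak-7;akt-1 was 2.82 ± 2.08. Its head-to-head neighbour R12E2.15 had a log2 fold change of 0.47, with an interval from -0.26 to 1.20.

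W08D2.11, D2023.15 and the cuticle collagen gene col-36 were higher in eak-7;akt-1 than in wild type and both triple mutants. Their means were 111 ± 134, 148 ± 163 and 196 ± 358 scaled counts in eak-7;akt-1, and near 0 in both triple mutants. The col-36 values in eak-7;akt-1 ranged from 6.91 to 833. W08D2.11 and D2023.15 are noncoding RNA genes that overlap the collagen genes col-123 and col-158 on the opposite strand. W08D2.11 also overlaps catp-6 on the same strand. Whether their values include reads of these genes was not tested. W08D2.11 had 2 fragments over the daf-12 triple mutant libraries and 3 over those of the daf-16 triple mutant, and col-36 also had 2 and 3, too few for a fold change. D2023.15 had 4 and 14 fragments, with scaled counts of 0.702, 0, 0, 2.112 and 0.958 in the daf-12 triple mutant and 2.81, 0, 1.71, 4.49 and 4.40 in the daf-16 triple mutant. This difference did not pass the test (log2 fold change -0.98 ± 0.51, limma adjusted p = 0.688). srw-85, a chemoreceptor gene with a mean of 13.7 ± 8.72 in wild type, had 0 and 2 fragments in the triple mutants.

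lin-46, a gene of the heterochronic pathway that acts downstream of DAF-12 in the timing of larval cell fates, shares a locus with R186.7. It had 8.42, 14.8, 6.84, 11.7 and 12.3 scaled counts in the daf-16 triple mutant and 6.32, 8.44, 2.05, 7.39 and 2.88 in the daf-12 triple mutant. The log2 fold change was -0.97 ± 0.37, with overlap between strains and a limma adjusted p of 0.607. The wild-type mean was 10.8 ± 3.25 and that of eak-7;akt-1 was 0.856 ± 1.28. daf-22, a thiolase that completes the synthesis of the dauer pheromone, had 4.21, 14.8, 14.5, 16.2 and 17.6 against 3.51, 7.502, 7.19, 7.39 and 9.58. The strains overlapped through replicate 6 of the daf-16 triple mutant, and the log2 fold change of -0.78 ± 0.38 did not pass the test (limma adjusted p = 0.674). daf-22 and daf-28 were the only 2 tested of 48 loci on the list of dauer pathways and dafachronic acid synthesis, with a median of -0.66. Without the libraries that stand apart the median of these loci was -0.11, and daf-28 was above 0. On the list of dauer-stage cuticle and storage genes, far-1, far-2, far-6 and the locus of far-5 were tested. Their median was -0.24, 0 were called, and far-1 and far-2 were lower at an unadjusted p below 0.05. far-6 (-0.09 ± 0.23) and the far-5 locus (0.06 ± 0.50) did not pass.

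Ribosomal protein genes, which supply the structural proteins of the ribosome, leaned slightly to lower values in the daf-12 triple mutant. Of 43 tested large subunit loci 36 were below 0, with a median log2 fold change of -0.16, and of 28 small subunit loci 23 were below 0, with a median of -0.15. None was called, against 0.454% of all tested loci called higher and 0% lower, and at an unadjusted p below 0.05 4 large subunit loci and 0 small subunit loci were lower, rpl-4 among them (-0.33 ± 0.14). Under TMM scaling 34 of 43 and 23 of 28 were below 0, and the median of all tested loci was 0.02. Loci with a mean of at least 100 scaled counts leaned the same way, with 53 of 75 below 0 and a median of -0.13. Without their ribosomal protein loci the median was -0.08, with 29 of 50 below 0.

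Of the cuticle collagens, 13 loci of 174 were tested, 8 above and 5 below 0, with a median of 0.11 and 0 called. dpy-5, which encodes a cuticle collagen, had 23.9, 42.4, 49.6, 78.2 and 46.7 against 83.5, 46.9, 57.5, 90.8 and 75.7, with overlap and a log2 fold change of 0.60 ± 0.30. The merged col-167 and col-168 locus had 1.01 ± 0.44, and the locus of col-146 had 1.41 ± 0.97, neither past the test. Both innate defence effectors and neuropeptide-like proteins straddled 0, with 14 above and 19 below of 33 loci (median -0.13) and 4 above and 8 below of 12 (median -0.11), and 0 called in each. Without the libraries that stand apart these medians were 0.05 and 0.02. The lists share members, namely nlp-25, nlp-32, nlp-34 and the loci of nlp-27, nlp-29 and nlp-33, so their counts are not separate. The caenacin gene cnc-8 (-0.43 ± 0.17, limma adjusted p = 0.609) was the only defence effector with p below 0.05. T24B8.5, a gene used as a reporter of innate immune signaling, had 5.62, 5.30, 8.54, 8.09 and 8.80 against 2.106, 0, 3.08, 6.34 and 2.88, with overlap through replicate 9 of the daf-12 triple mutant and -1.32 ± 0.47 on the log2 scale (limma adjusted p = 0.582).

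Of 12 tested intestinal loci, 5 were above 0 and 7 below, with a median of -0.04 and 0 called, and asp-1 and fat-2 had p below 0.05. On the other side of 0, with larger p, were asp-3 (0.58 ± 0.90) and asp-10 (0.47 ± 0.29), also aspartic proteases. asp-1, an aspartic protease of the intestine, had 33.7, 24.4, 25.6, 36.8 and 39.6 against 28.1, 22.5, 17.5, 15.8 and 15.3, and fat-2, a fatty acid desaturase, had 33.7, 22.3, 15.4, 21.6 and 25.5 against 17.6, 19.7, 14.4, 14.8 and 11.5. Both overlapped between strains, at log2 fold changes of -0.68 ± 0.22 and -0.55 ± 0.23. The summed intestine markers ranged from 21.1 to 32.3 in the daf-12 triple mutant and from 26.5 to 45.8 in the daf-16 triple mutant. Most of that sum was asp-1 itself, with ges-1 and cpr-1 at 0 and elt-2 at 3 or fewer fragments in each library. The sum is therefore no measure of the intestine separate from asp-1, and the part of tissue amount in the asp-1 and fat-2 values was not tested. act-5, the actin of the intestinal brush border, was at -0.01 ± 0.31.

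The remaining lists held 0 called loci each. Their medians were -0.05 for 16 nuclear respiratory chain and ATP synthase loci, -0.01 for 3 mitochondrial genome loci, 0.02 for 7 loci of cuticlins and other cuticle proteins, -0.02 for 2 hedgehog-related loci, -0.08 for 4 transthyretin-like loci, -0.28 for 3 histone loci and -0.53 for 2 intracellular lipid-binding loci. Markers of muscle (4 loci, median 0.10), neurons (3 loci, 0.46) and the germ line (4 loci, 0.22) also held 0 called, and 0 loci of the 31 FMRFamide-like neuropeptide loci passed the filter.

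**Figure D5:**
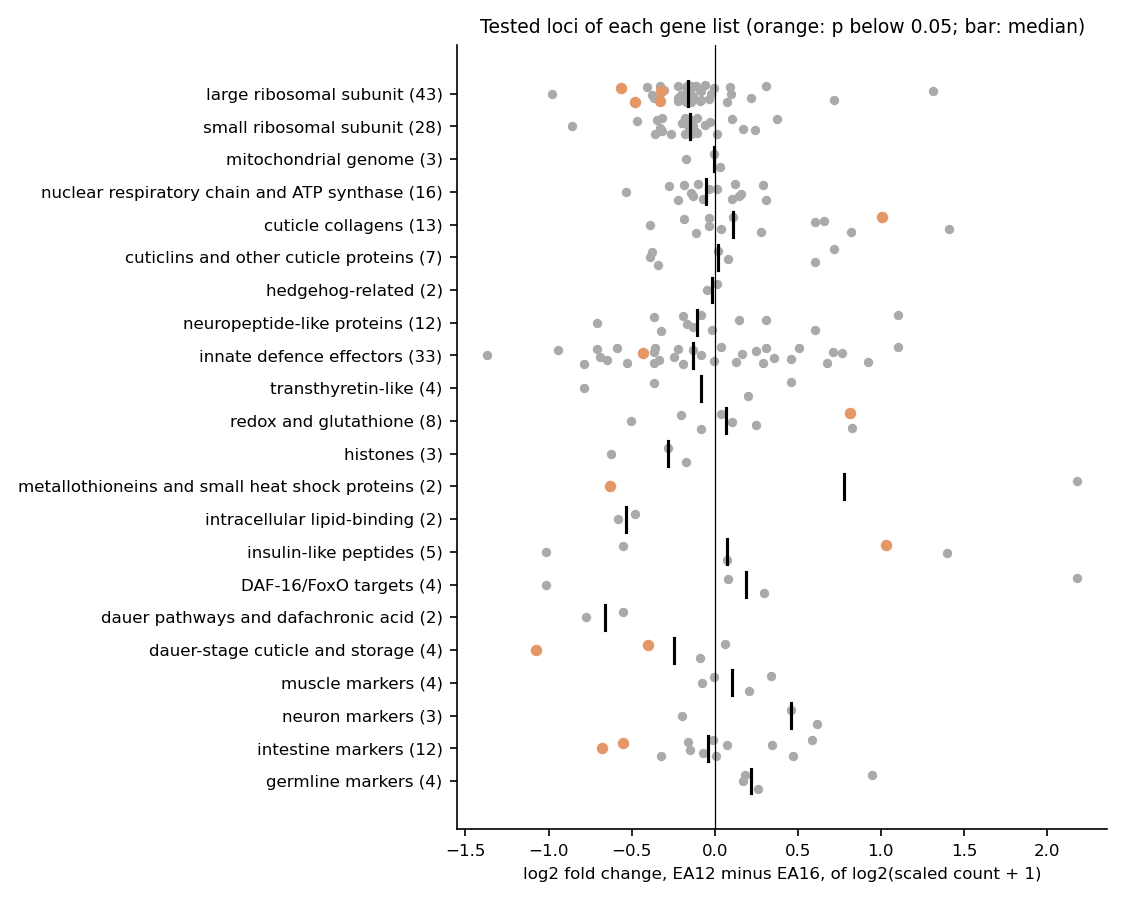
Log2 fold change, eak-7;akt-1;daf-12 minus daf-16;eak-7;akt-1, of every tested locus on each list, with the number of tested loci in parentheses and black bars at medians. Orange points have p below 0.05, and most points of both ribosomal lists lie left of 0.

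F48D6.4 was the only called locus placed on chromosome X. The unnamed locus, also called, was among the 102 tested loci that could not be placed, so its chromosome is not known. Of 127 tested X-linked loci, 7 were higher and 3 lower at p below 0.05, with a median log2 fold change of 0.05, and of 872 autosomal loci 29 were higher and 33 lower, with a median of -0.01 and 3 called.

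How closely a difference was bounded varied with the level. The 95% interval of the fold change lay within 1.5-fold either way at 122 of 1101 loci, within 2-fold at 435 and within 4-fold at 922. Of the 75 loci with a mean of at least 100 scaled counts it lay within 1.5-fold at 41, and of the 394 loci under 5 scaled counts at 5. At most loci, then, the interval did not exclude a difference of 1.5-fold or more between the strains. Wide intervals were not limited to low loci. The gpx-1 locus, with means of 191 and 194, had a standard error of 1.71 with all libraries and 0.12 without those that stand apart.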

How the data were processed

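Polyadenylated RNA of whole larvae was sequenced in paired ends. The submitters' processing notes name FastQC, cutadapt, TopHat2 2.0.9, Bowtie2 2.1.0, Cufflinks and Cuffdiff 2.1.1, with the WBcel235 genome. The authors deposited a signal table of fragment counts divided by a size factor per library, 1 column per library. Whole fragments (within 0.01) were recovered by dividing out the smallest step of each column, and fragments shared between merged or overlapping genes cannot be divided. The study named its strains and replicates 6 to 10 in the titles, which set the groups.

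Differences were fitted with limma 3.58.1 (trend, R 4.3.3) on log2(scaled count + 1) of the 10 libraries, with Benjamini-Hochberg adjustment over 1101 loci. Fold changes on this scale understate those of low loci. Calls required both a 1.5-fold change or more and an adjusted p below 0.05. Exact two-sided permutation tests compared single loci. Intervals of rate ratios cover counting error only. edgeR 4.0.16 and DESeq2 1.42.0 were run on recovered fragments, and the fit was tested on simulated data. Alternatives changed the pseudocount, filter, scaling, libraries fitted, tool, replicate block and fold minimum, and left out libraries. edgeR without the libraries that stand apart was chosen after seeing the data.

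Members and gene lists were chosen with earlier results of these data known. The genes named were the 12 largest called changes each way whose libraries did not overlap, called list members, the mutated genes and a fixed set of genes from earlier results (C02E7.6, R12E2.14, R12E2.15, Y48G8AL.12, W08D2.11, D2023.15, col-36, srw-85, ins-7, ins-9, ins-35, mtl-1 and sod-3). Other names were chosen after their values were seen. Gene positions came from WBcel235 and 91.3% of gene names matched. Promoter sequences and motifs were not used here. Python 3.11.15 with pandas 2.3.3, numpy 2.4.6, scipy 1.17.1 and matplotlib 3.10.9 did the rest.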

Additional observations from a re-analysis of the deposited data

Results flagged for a closer look

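Of 81 groups of 5 libraries at the named loci, 10 held a library far from the other 4 by Dixon's test, where chance gives about 1 in 20 groups, or 4.05 of 81. At 5 of the 10 the far library was one that stands apart on the first principal component. These were the lowest eak-7;akt-1;daf-12 library at ins-35 (1.88 scaled counts) and at the gpx-1 locus (0), and the lowest daf-16;eak-7;akt-1 library at mtl-1 (0) and at the gpx-1 locus (4.40). The last of these was the highest daf-16;eak-7;akt-1 library at the sod-1 locus (23.8).

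The other 5 lay in libraries that do not stand apart. In eak-7;akt-1;daf-12 replicate 6 was the lowest at dct-7 (2.81). In daf-16;eak-7;akt-1 replicate 6 was the lowest at daf-22 (4.21) and the highest at daf-28 (49.1), replicate 7 the lowest at the pfd-1 locus (19.1), and replicate 8 the lowest at R06B9.5 (24.8).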

How the results depend on the processing

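The count of called loci depended on the libraries and the filter. Against 5 called (5 higher and 0 lower), 1 was called with no filter (1 higher) and 8 with the fit on 30 libraries (2 lower), while 9 were called without the libraries that stand apart (9 higher) and 10 by edgeR without them (9 higher and 1 lower). The lower call was 1 with the filter of 10 scaled counts, TMM scaling, all 35 libraries and edgeR, and 2 with DESeq2, which gave no adjusted p for 749 loci. On leaving out each library in turn, the total ranged from 1 to 6, the higher calls from 1 to 6 and the lower calls from 0 to 1. With the replicate numbers as a block (replicate block) 1 locus was called, 1 higher, which was F48D6.4, and the other 4 calls were lost. Pairing by number was not established. Of 5 same-numbered pairs 3 correlated above 0.1 (range over the 5 from -0.394 to 0.264), the other 2 each held a library that stands apart, and not every library correlated best with its own number. F48D6.4 was called under every alternative, and in each that was run it was the 1 call placed on chromosome X.

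Signs changed at 6 loci, none of them called, and the cause was not tested. For daf-28 and the gpx-1 locus the sign turned on leaving out replicate 7 of eak-7;akt-1;daf-12, which stands apart. On leaving out single libraries R12E2.14 ranged from -0.086 to 0.21 on the log2 scale, W08D2.11 from -0.31 to 0.12, col-36 from -0.28 to 0.14, far-6 from -0.17 to 0.036, daf-28 from -0.90 to 0.51 and the gpx-1 locus from -1.60 to 1.07. The daf-28 value was 0.14 by edgeR, 0.15 by DESeq2, 0.46 without the libraries that stand apart and 0.41 by edgeR without them. Intervals were wide at low loci: the 95% interval lay within 2-fold at 65 of 394 loci under 5 scaled counts.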
